A study of Danio rerio with 4 samples.

Results

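Oxidative phosphorylation genes were taken as the rows of the deposited table whose KEGG pathway terms include 'Oxidative phosphorylation'. There were 117 such rows among 20984 genes, and 113 of them had a mean of at least 10 over the 4 ventricles and were tested, beside 16065 tested genes in all. Bulk RNA-seq had been performed by the authors on single cryoinjured ventricles of adult AB strain zebrafish aged 3 to 12 months. One group was 2 wild types, and the other was 2 *cd74a; cd74b* double mutants, which carry the CRISPR-Cas9 alleles bns454 and bns456 in the genes for both zebrafish copies of the MHC class II chaperone Cd74. All 4 fish were cryoinjured, so there was no uninjured ventricle to compare with. The study's text places the collection 5 days after injury, whereas the design text of the series gives 7 days. Fish were progeny of wild-type or mutant animals crossed to double heterozygotes of the same batch, and each genotype held 1 female and 1 male without a statement of which ventricle was which. The groups may therefore differ in family as well as in genotype, and these cannot be told apart. The mutations were carried by every cell of the fish, not by the heart alone.

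Oxidative phosphorylation is the way in which mitochondria turn the oxidation of NADH and succinate into ATP. Complexes I and II pass electrons to ubiquinone, complex III passes them to cytochrome c and complex IV to oxygen, and complexes I, III and IV pump protons whose return through ATP synthase drives the making of ATP. Adult heart muscle is among the tissues richest in mitochondria and depends on this pathway. The KEGG pathway also lists the vacuolar ATPase, a related rotary pump that spends ATP to acidify lysosomes, endosomes and other vesicles and that macrophages and osteoclasts hold in large amounts. Sorted by symbol, the listed members were 36 of complex I, 5 of complex II, 9 of complex III, 21 of complex IV, 16 of ATP synthase, 24 of the vacuolar ATPase and 6 others. The table held 0 genes on the mitochondrial chromosome, so every member is a nuclear gene, and the subunits encoded by mitochondrial DNA were not analysed here.

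The values are normalized counts, reads per gene scaled by the authors with 1 size factor for each ventricle and then rounded. They summed to between 4123819 and 4382529 per ventricle, and the size factors estimated from the rounding lay between 0.927 and 1.067. Normalized counts are not corrected for gene length, so they are compared between ventricles and not between genes. The targeted gene *cd74b* followed the labels, at 622 and 678 in wild types against 131 and 117 in mutants. Heart muscle markers were present in every ventricle. The myosin light chain gene *myl7*, for example, had 970 and 1040 in wild types against 1043 and 1209 in mutants, and the 12 rows of the cardiomyocyte list summed to between 15188 and 17204. Fold changes are on the log2(normalized count + 1) scale, as mutants over wild types, from limma fitted to all 16065 tested genes. A call needed both a Benjamini-Hochberg adjusted p-value under 0.05 and a log2 fold change of 0.59 or more in size (SE stands for the standard error from limma). The p-values rest on a variance that limma draws both from the spread between 2 fish per genotype and from a trend over all tested genes. With 2 against 2 an exact permutation test of any single value cannot go below 0.333. Since the RNA came from whole ventricles, fewer cells of a type and less RNA per cell cannot be told apart.

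Most oxidative phosphorylation genes stood slightly higher in *cd74a; cd74b* mutants, and the test called almost none of them. The log2 fold change was above 0 in 95 of the 113 tested members (84.1%), whereas 52.2% of all tested genes were above 0. The members' median was 0.16, beside 0.03 for all tested genes. One member rose, the complex I paralog *ndufa4l2a*, and 0 members were called lower. Among all tested genes 2.7% were called higher and 7.44% lower. At an unadjusted p-value under 0.05, 8 members were higher and 3 were lower, against 11.7% and 17.2% of all tested genes. The limit of detection matters here, because the median SE of the members was 0.17 on the log2 scale. For 61 of the 113 members the 95% confidence interval of the log2 fold change lay wholly within 0.59 of 0. The interval reached 0.59 or more in 45 members and -0.59 or less in 9, so changes of the size needed for a call were not excluded for these.

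**Figure D1:**
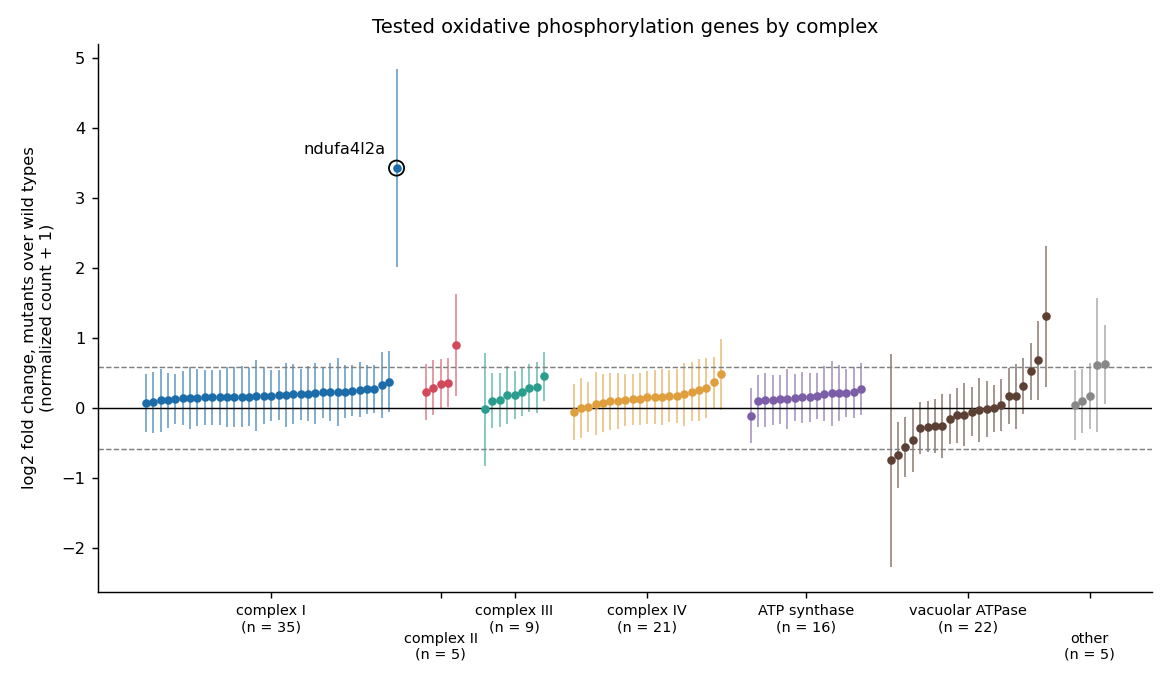
Log2 fold change (mutants over wild types, on the normalized count + 1 scale) of the 113 tested members, sorted by size within each complex, with 95% confidence intervals from limma as vertical lines and dashed lines at the limits of 0.59 and -0.59. Nearly all points of complexes I to IV and of ATP synthase lie just above 0, the vacuolar ATPase points run from -0.75 to 1.31, and the circled point is the 1 called member, *ndufa4l2a*.

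The small upward difference was not shared evenly by the ventricles. Both mutants lay above both wild types in 39 of the 113 members (34.5%), beside 30.5% of all tested genes, and both lay below in 7, beside 29.4% of all tested genes. Mutant 2 had the highest value in 96 members (85.0%), against 33.0% of all tested genes. Wild type 1 had the lowest value in 81 members (71.7%), against 27.1% of all tested genes. Mutant 1 and wild type 2 thus lay in between and often overlapped. The median deviation of the members from their mean over the ventricles was -0.15 in wild type 1, -0.02 in wild type 2, -0.04 in mutant 1 and 0.21 in mutant 2 on the log2 scale. Without mutant 2 the members' median log2 fold change was 0.03, and without mutant 1 it was 0.29. Without wild type 1 it was 0.08, and without wild type 2 it was 0.24. Mutant 2 also had the smallest size factor, and with the values multiplied by the size factors it was still the highest ventricle in 76 members (67.3%), against 16.5% of all tested genes.

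The shortest well-expressed genes outside the pathway showed a difference of much the same size. Of the tested members 107 had a mean of at least 100, and they were set beside the other 9742 genes with such a mean. Among genes of up to 4000 bases from start to end, the median log2 fold change was 0.15 in 24 members and 0.16 in 668 other genes. From 4000 to 8000 bases it was 0.15 in 35 members and 0.12 in 1258 other genes. From 8000 to 16000 bases it was 0.175 in 31 members and 0.125 in 2298 other genes. Above 16000 bases it was 0.165 in 17 members and 0.054 in 5518 other genes. Over all lengths it was 0.157 in the members and 0.095 in the other genes. The share of genes with their highest value in mutant 2 also moved with length in the genes outside the pathway, from 59.7% at up to 4000 bases to 35.4% above 16000 bases. The median difference of the members of up to 4000 bases was therefore not larger than that of the other genes of that length, while the direction was more uniform, with 24 of 24 members above 0 against 481 of the 668 other genes. The part of gene length and expression level in the members' difference was not tested.

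The values of short genes stayed below their length. No gene of the 20984 had a mean that reached its own length from start to end. The ratio came closest in *cmlc1*, a ventricular myosin light chain gene with a mean of 707.0 and a length of 796 bases, and the highest mean among the 1158 genes of up to 2000 bases was 842.0. The highest value of any gene was 6864. Whether duplicate reads were removed before counting is not given in the sources used here. The 117 members were from 1460 to 69043 bases long, with a median of 7189. Whether a ceiling set by length narrows the differences of the short, abundant members was not tested.

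**Figure D2:**
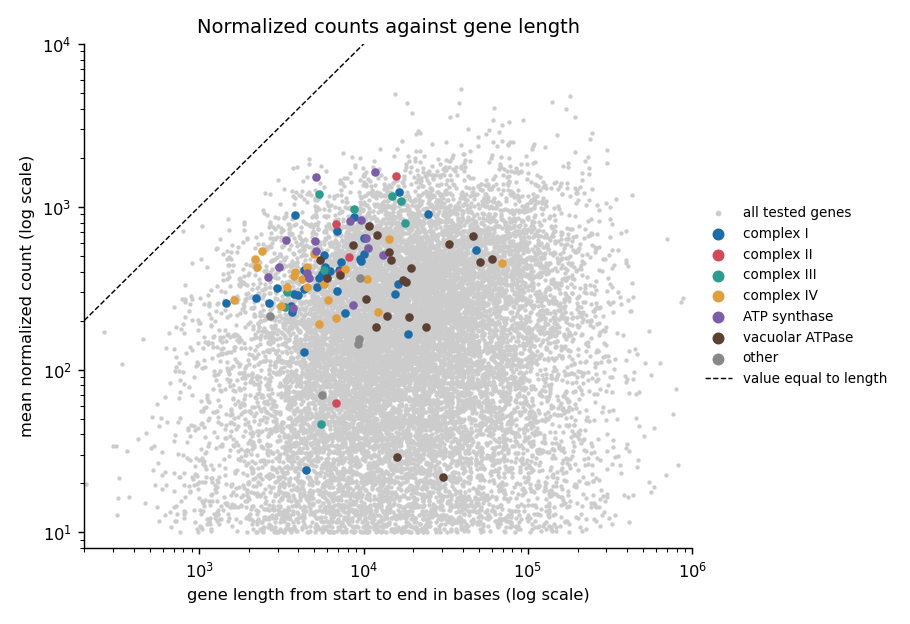
Mean normalized count over the 4 ventricles (log scale) against gene length from start to end in bases (log scale) for all tested genes (grey) and the members of each complex (colours). The dashed line marks a mean equal to the length, which no gene reached, and most members lie in the short, well-expressed corner of the cloud.

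Complex I takes electrons from NADH, and its 35 tested members all had a log2 fold change above 0, with a median of 0.175. Under cyclic loess normalization 34 were above 0 with a median of 0.079, without wild type 1 there were 34 with a median of 0.101, and without mutant 2 there were 30 with a median of 0.045. Leaving out *ndufa4l2a*, no complex I member was past 0.37 in either direction. *ndufv1* encodes the flavoprotein that accepts the electrons from NADH. It had 1107 and 1121 in wild types against 1226 and 1472 in mutants, which gave a log2 fold change of 0.27 (SE 0.15, limma adjusted p-value 0.266). Its groups did not overlap, as in 12 of the 35 complex I genes (34.3%, beside 30.5% of all tested genes). Core subunits of the arm that hands electrons to ubiquinone stood alike. *ndufs3* had 443 and 469 in wild types against 488 and 611 in mutants, and *ndufs7* had 454 and 510 against 483 and 590. Mutant 2 was highest and wild type 1 lowest in both genes. The accessory subunit *ndufb2* had the largest difference after *ndufa4l2a*, with 254 and 296 in wild types against 318 and 397 in mutants, which gave a log2 fold change of 0.37 (limma adjusted p-value 0.231). The accessory subunit *ndufa7* had the smallest, with 209 and 225 against 214 and 242, a log2 fold change of 0.07 in which mutant 1 lay between the wild types.

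*ndufa4l2a* was the only called member. Its mammalian counterpart NDUFA4L2 is a paralog of NDUFA4 that is known in human and mouse cells to be switched on by low oxygen and to lower complex I activity. In danRer11 it occupies positions 323460 to 327901 of chromosome 9, on the minus strand. It had normalized counts of 5 and 2 in wild types against 50 and 40 in mutants. Both mutants were thus far above both wild types, at a level that stayed low in all 4 ventricles. The mean was 3.50 in wild types, below the minimum mean for testing, and 45.00 in mutants. The gene therefore passed the filter only through its mutant values, and its wild-type values lay near the floor of the counts. The log2 fold change was 3.43 (SE 0.61, 95% confidence interval 2.01 to 4.85, limma adjusted p-value 0.0189). With such low wild-type values its size moved with the pseudocount, to 3.78 at a pseudocount of 0.1 and 2.57 at 5. In estimated reads the wild types held 7 and the mutants 90 together, a ratio of 13.1 with a 95% interval of 6.08 to 33.4 that covers counting error only. This call did not hold with low genes kept in (limma adjusted p-value 0.0616). It also did not hold when the values were multiplied by the size factors (0.0701), which undoes the scaling between ventricles, or when any 1 ventricle was left out. With any 1 ventricle left out the log2 fold change stayed between 2.93 and 3.93.

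The other paralogs of this family showed no such difference. *ndufa4*, whose human counterpart has since been assigned to complex IV, had 815 and 887 in wild types against 842 and 1019 in mutants, which gave a log2 fold change of 0.12 (limma adjusted p-value 0.633). Sorting by symbol kept *ndufa4* and its paralogs in the counts and sums of complex I. *ndufa4l* had 429 and 472 in wild types against 474 and 545 in mutants, which gave a log2 fold change of 0.18 (limma adjusted p-value 0.494). The ratio of *ndufa4l2a* to *ndufa4* normalized counts, uncorrected for length, was 0.006 and 0.002 in wild types against 0.059 and 0.039 in mutants. The ratio was thus higher in both mutants, while *ndufa4l2a* remained a small fraction of *ndufa4* in all 4 ventricles. The wild-type ratios rest on *ndufa4l2a* values near the floor of the counts, so their size is uncertain. *ndufs1*, the largest iron-sulfur subunit of complex I, was not tested, with 2 and 0 in wild types against 3 and 2 in mutants. Its row shares its strand and part of its interval with *ino80db*, and reads overlapping several genes were not counted. The part of this overlap in the low values was not tested.

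Complex II, succinate dehydrogenase, was the complex whose members stood most uniformly above the wild types. In all 5 genes both mutants exceeded both wild types, beside 30.5% of all tested genes, and the median log2 fold change was 0.35. The direction held for all 5 under every alternative, and the median was 0.20 without mutant 2 and 0.23 under cyclic loess normalization. No member was called. *sdha* encodes the flavoprotein that oxidizes succinate. It had 1383 and 1340 in wild types against 1565 and 1914 in mutants, which gave a log2 fold change of 0.35 (SE 0.15, limma adjusted p-value 0.176). *sdhb*, the iron-sulfur subunit, had 652 and 716 in wild types against 811 and 945 in mutants, which gave a log2 fold change of 0.36 (limma adjusted p-value 0.166). Mutant 1 lay above the wild types in both genes, though nearer to them than mutant 2.

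The membrane anchors of complex II are *sdhc* and 2 copies of the other anchor gene, *sdhda* and *sdhdb*. *sdhc* had 346 and 387 in wild types against 388 and 472 in mutants, which gave a log2 fold change of 0.23, with mutant 1 only just above wild type 2. *sdhdb* had 407 and 476 against 490 and 588, a log2 fold change of 0.29. *sdhda* had 42 and 44 in wild types against 96 and 68 in mutants, which gave a log2 fold change of 0.90 (95% confidence interval 0.17 to 1.62, limma adjusted p-value 0.109). Here mutant 1 was the highest ventricle, unlike in most other members. The ratio of *sdhda* to *sdhdb* was 0.103 and 0.092 in wild types against 0.196 and 0.116 in mutants, and so was higher in both mutants.

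Complex III passes electrons from ubiquinol to cytochrome c. Of its 9 tested genes 8 had a log2 fold change above 0 (9 under cyclic loess normalization and 7 without mutant 2). Both mutants exceeded both wild types in 6 (66.7%, beside 30.5% of all tested genes). The median was 0.185, and 0.09 without mutant 2. *uqcrfs1*, which encodes the Rieske iron-sulfur protein, had 971 and 1038 in wild types against 1238 and 1517 in mutants. Both mutants were clearly above both wild types, with a log2 fold change of 0.45 (SE 0.15, 95% confidence interval 0.09 to 0.81, limma adjusted p-value 0.103). This was the smallest adjusted p-value of any uncalled gene of the respiratory chain. The core proteins *uqcrc1* (1060 and 1122 in the wild types, 1132 and 1359 in the mutants) and *uqcrc2b* (951 and 995 against 1082 and 1288) and cytochrome c1, *cyc1* (878 and 898 against 946 and 1147), had log2 fold changes from 0.19 to 0.28. Only *uqcrb* was not above 0, with 48 and 45 in wild types against 38 and 55 in mutants, so that the mutants lay on either side of the wild types.

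Complex IV, cytochrome c oxidase, had 20 of 21 tested genes above 0 with a median of 0.15. Under cyclic loess normalization 14 were above 0 with a median of 0.04, and without mutant 2 there were 13 with a median of 0.03. No member was called. The largest differences were in genes that build the enzyme and are not part of it. *cox10* and *cox15* encode the enzymes that make heme A, and *cox11* encodes a protein that delivers copper. *cox15* had 347 and 253 in wild types against 362 and 472 in mutants, which gave a log2 fold change of 0.48 (limma adjusted p-value 0.193), in a gene whose wild types differed by more than the gap to mutant 1. *cox10* had 410 and 376 against 471 and 544, a log2 fold change of 0.37 (limma adjusted p-value 0.175), and *cox11* had 168 and 175 against 199 and 219, a log2 fold change of 0.28. Among these 3 genes the groups did not overlap. They did overlap in *cox17*, another gene that builds the enzyme, with 210 and 246 against 234 and 288, a log2 fold change of 0.19. Both mutants exceeded both wild types in 5 of the 21 complex IV genes (23.8%, beside 30.5% of all tested genes).

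The isoforms of the structural subunits, some of which are specific to muscle or to low oxygen in mammals, showed small differences. Subunit 4 is encoded by *cox4i1*, *cox4i1l* and *cox4i2*, of which the mammalian counterpart of the last is an isoform of the lung that responds to low oxygen. *cox4i1* had 484 and 546 in wild types against 509 and 605 in mutants, *cox4i1l* had 552 and 642 against 606 and 739, and *cox4i2* had 172 and 209 against 223 and 230. Only in *cox4i2* did both mutants exceed both wild types, with a log2 fold change of 0.26 (limma adjusted p-value 0.408). *cox6a2*, whose mammalian counterpart is the heart and skeletal muscle form, had 414 and 492 in wild types against 460 and 551 in mutants. *cox6a1*, the form of most other mammalian tissues, had 330 and 350 against 297 and 357, the 1 complex IV gene below 0 with a log2 fold change of -0.06. The ratio of *cox6a1* to *cox6a2* was 0.797 and 0.711 in wild types against 0.646 and 0.648 in mutants, and so was lower in both mutants. *cox8a*, *cox8b*, *cox6b1*, *cox6b2* and *cox7a2a* had log2 fold changes from 0.0005 to 0.15, and all 5 overlapped between the genotypes. A member with the symbol *COX5B* had 371 and 381 in wild types against 369 and 390 in mutants, and a second row of that symbol carries no pathway term.

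ATP synthase had 15 of 16 tested genes above 0 with a median of 0.15, which was 0.04 under cyclic loess normalization and without mutant 2. No member was called, and the interval lay wholly within 0.59 of 0 in 12 of the 16. The catalytic head is built from the products of *atp5fa1* and *atp5f1b*. *atp5fa1* had 1530 and 1542 in wild types against 1591 and 1877 in mutants, which gave a log2 fold change of 0.17 (SE 0.14, limma adjusted p-value 0.466). *atp5f1b* had 1436 and 1470 against 1475 and 1744, a log2 fold change of 0.14. In both genes mutant 1 lay just above the wild types and mutant 2 stood apart. The 3 genes of the rotating c ring, *atp5mc1*, *atp5mc3a* and *atp5mc3b*, had log2 fold changes from 0.10 to 0.15 and overlapping groups. The stalk subunit *atp5pd* had the largest difference, with 479 and 527 in wild types against 551 and 663 in mutants, which gave a log2 fold change of 0.27 (limma adjusted p-value 0.309). The membrane subunit *atp5mf* was the 1 gene below 0, with 358 and 402 against 324 and 380, a log2 fold change of -0.11. *atp5f1e* had 221 and 256 in wild types against 243 and 278 in mutants.

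Summed over its members, each respiratory complex was highest in mutant 2. Complex II summed to 2830 and 2963 in wild types against 3350 and 3987 in mutants, a ratio of 1.267 (1.157 without mutant 2). Complex III summed to 5478 and 5771 against 6140 and 7408, a ratio of 1.204 (1.092 without mutant 2). In these complexes both mutants lay above both wild types, which gives the smallest p-value the exact permutation test allows (0.333, two-sided). Complex I summed to 13139 and 14489 against 14431 and 17403, complex IV to 7046 and 7618 against 7493 and 8866, and ATP synthase to 9429 and 10119 against 10017 and 11801. In each of these complexes mutant 1 lay below wild type 2 (exact permutation p = 0.667). Over all 117 members the sums were 48224 and 50280 in wild types against 50091 and 59666 in mutants. The ratio was 1.114, and 1.017 without mutant 2.

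**Figure D3:**
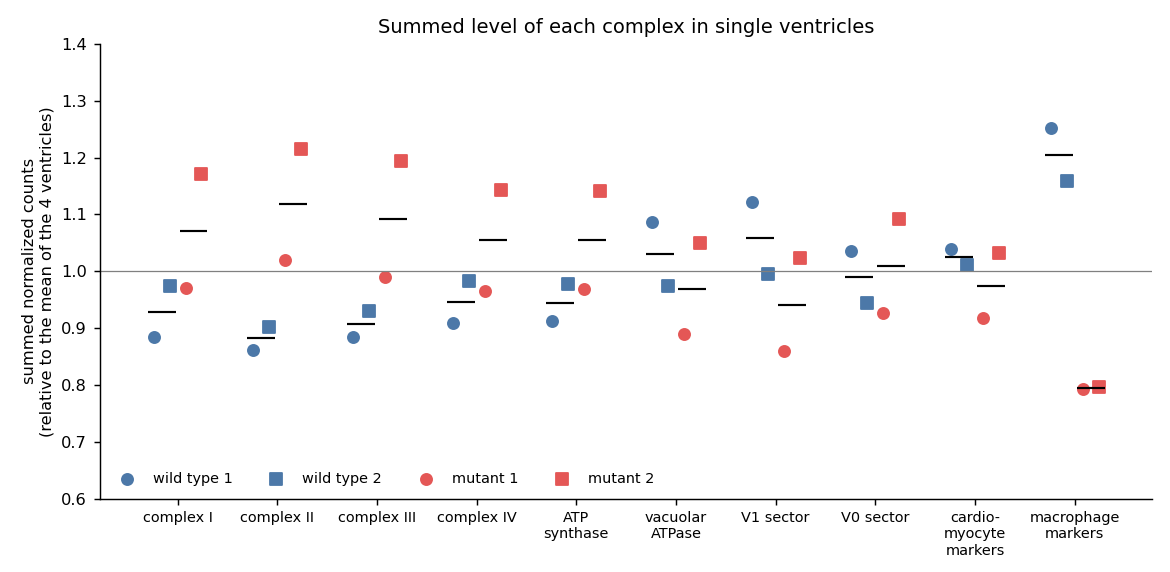
Summed normalized counts of each complex, of both sectors of the vacuolar ATPase and of the cardiomyocyte and macrophage markers, each divided by its mean over the 4 ventricles, with circles for replicate 1, squares for replicate 2, blue for wild types, red for mutants and bars for group means. Mutant 2 is highest in every respiratory complex, both mutants are above both wild types only in complexes II and III, and the macrophage markers are lower in both mutants.

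Summed immune markers were lower in the mutant ventricles. Beside the calls given next, 7.44% of all tested genes were called lower and 2.7% higher. The 6 macrophage markers found summed to 4304 and 3980 in wild types against 2725 and 2735 in mutants, a ratio of 0.659, and 2 of the 6 were called lower. The other 2 genes of that list had no row. The 6 rows of the neutrophil list summed to 796 and 592 against 397 and 386, and 2 of the 4 tested were called lower. T cell markers summed to 191 and 247 against 72 and 63, which rested on *cd4-1* (171 and 162 against 21 and 19, called lower), while *lck* and *zap70* both had a log2 fold change of 0.32 and *cd8a* was not tested. Erythrocyte markers summed to 2903 and 5548 against 2281 and 2389, with 1 of 7 tested rows called lower. The endothelial or endocardial and the epicardial or fibroblast lists overlapped between the genotypes, with ratios of 0.964 and 1.017, although the endothelial marker *pecam1* was called higher (285 and 259 against 542 and 529). The 3 smooth muscle markers had a ratio of 1.134. The cardiomyocyte markers summed to 17204 and 16748 against 15188 and 17096, a ratio of 0.951 with 0 of 12 called, and none of the rows was at 0. Their log2 fold changes differed widely, with *myl7* at 0.16, *tnnt2a*, the cardiac troponin T gene, at 0.18 and *tnni1b*, a troponin I gene, at 0.49, but *cmlc1* at 0.08, *nppa*, the gene for atrial natriuretic peptide, at -0.03 and *nppb* at -0.21. *ttn.2*, which encodes titin, had 5681 and 5793 against 3659 and 4094. The list's sum, in which *ttn.2* was the largest row, thus did not follow mutant 2 in the way the complexes did. Its single genes mostly did, since *myl7*, *tnnt2a*, *tnni1b*, *actc1a* (in both rows), *cmlc1*, *nppa*, *mb* and *ckma* were highest in mutant 2. The exceptions were *ttn.2*, *ryr2b* and *nppb*. The sum therefore does not set the complexes apart from other genes of heart muscle. The part of cell composition in the members' differences was not tested.

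The vacuolar ATPase genes did not share the direction of the respiratory chain. Of 22 tested genes 7 had a log2 fold change above 0 and 15 below, with a median of -0.07. Sorting by symbol left *atpv0e2*, which was above 0, out of these counts and sums. Also outside them were *atp6v1e1a*, *atp6ap1lb* and *atp6ap2*, which carry no pathway term and were above 0. This median depended on single ventricles. Without mutant 1 there were 13 above 0 and the median was 0.05, and without wild type 1 there were 10 and the median was -0.01. No gene was called as deposited. *atp6v1ab* was called lower when each library was rescaled to the same total (adjusted p-value 0.049), and *atp6v1ab* and *tcirg1b* were called lower under upper-quartile rescaling (0.0431 and 0.0489) and cyclic loess normalization (0.0413 and 0.0382). Both mutants lay below both wild types in 7 of the 22 genes, where 29.4% of all tested genes did, and above them in 4 (18.2%, beside 30.5% of all tested genes), so the share below was near that of the whole table and the share above was smaller. The V1 sector, the part in the cytosol that splits ATP, summed to 5122 and 4546 in wild types against 3924 and 4675 in mutants, a ratio of 0.889. The V0 sector, the part in the membrane that carries protons, summed to 3729 and 3403 against 3339 and 3933, a ratio of 1.02. Both sums overlapped between the genotypes.

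The genes on the lower side included a catalytic and a membrane isoform. *atp6v1ab*, a copy of the catalytic A subunit gene, occupies positions 21154120 to 21172122 of chromosome 24 in danRer11. It had 494 and 363 in wild types against 245 and 286 in mutants, which gave a log2 fold change of -0.68 (SE 0.20, 95% confidence interval -1.14 to -0.21, limma adjusted p-value 0.0731). *tcirg1b* encodes the a3 isoform of the membrane sector, which in mammals is the form of osteoclasts and of macrophage lysosomes, and lies on chromosome 14 from 16777308 to 16810489. It had 800 and 618 against 436 and 522, a log2 fold change of -0.56 (SE 0.18, 95% confidence interval -0.98 to -0.13, limma adjusted p-value 0.0928). *atp6v1c1b*, for the C subunit that joins both sectors, had 257 and 231 against 160 and 194, a log2 fold change of -0.47 (limma adjusted p-value 0.162). In all 3 genes wild type 1 was highest and mutant 1 lowest, whereas in most members of the respiratory chain wild type 1 was lowest and mutant 2 highest. Of the 6 macrophage markers found, *csf1ra*, the receptor for colony stimulating factor, had the largest difference, with 937 and 762 in wild types against 364 and 345 in mutants. Its log2 fold change was -1.25, and *c1qb* had the smallest at -0.34. Whether fewer macrophages accounted for the lower vacuolar ATPase genes was not tested.

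Genes of other subunits lay on the higher side. The other copies of the A and C subunit genes, *atp6v1aa* and *atp6v1c1a*, did not, with log2 fold changes of -0.25 and -0.16. *atp6v0cb*, for the proteolipid ring that carries protons, had 274 and 306 in wild types against 378 and 461 in mutants, which gave a log2 fold change of 0.53 (limma adjusted p-value 0.0958), whereas its paralog *atp6v0ca* had 766 and 753 against 702 and 814. *atp6v1b2*, for the B subunit, had 122 and 158 against 190 and 262, a log2 fold change of 0.68 (limma adjusted p-value 0.113), whereas *atp6v1ba* had 795 and 644 against 564 and 635. *atp6ap1a*, for an accessory subunit that helps assemble the pump, had 20 and 13 against 39 and 44, a log2 fold change of 1.31 (SE 0.43, limma adjusted p-value 0.0959), whereas *atp6ap1b* had 550 and 476 against 411 and 439. In the pairs of *atp6v0cb*, *atp6v1b2* and *atp6ap1a* the copies differed in the side on which the mutants lay or in whether the groups overlapped.

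A ratio of paralogs within a ventricle does not depend on the scaling factor of the library. *atp6v1ab* to *atp6v1aa* was 0.751 and 0.727 in wild types against 0.572 and 0.531 in mutants. *atp6v1b2* to *atp6v1ba* was 0.153 and 0.245 against 0.337 and 0.413, and *atp6v0cb* to *atp6v0ca* was 0.358 and 0.406 against 0.538 and 0.566. Among the a subunit isoforms, *tcirg1b* to *atp6v0a1a* was 1.69 and 1.58 in wild types against 0.980 and 1.00 in mutants. *atp6v0a1a* had 473 and 390 against 445 and 520, *atp6v0a2b* had 190 and 157 against 184 and 204, and *tcirg1a* had 16 and 39 against 23 and 9, and all 3 overlapped between the genotypes. Each of the 4 ratios separated the genotypes, as did 9 of the 10 ratios computed, with pairs chosen after the values were seen and no test run. Such ratios are uncorrected for length and say nothing of which copy is more abundant as transcripts. *atp6v0a2a*, with 5 and 12 against 9 and 1, and *atp6v0a1b*, with 1 and 5 against 3 and 1, were not tested.

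**Figure D4:**
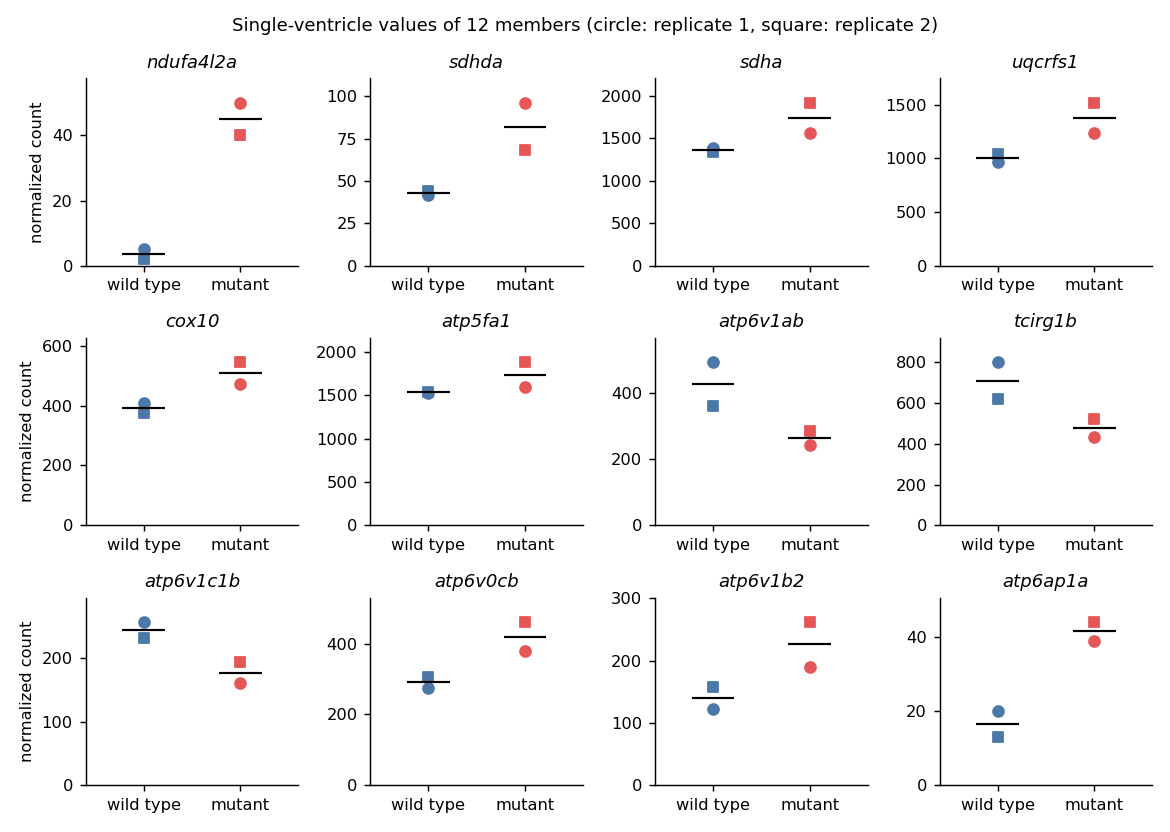
Normalized counts of 12 members in each ventricle, with circles for replicate 1, squares for replicate 2, and bars for the group means, each panel on its own axis from 0. In *ndufa4l2a* both mutants are far above both wild types, the vacuolar ATPase genes *atp6v1ab*, *tcirg1b* and *atp6v1c1b* are lower in both mutants, and *atp6v0cb*, *atp6v1b2* and *atp6ap1a* are higher in both.

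The remaining listed members are those whose symbols fit none of the groups above. *lhpp*, for a phosphatase that acts on phosphohistidine and pyrophosphate, had 145 and 101 in wild types against 178 and 196 in mutants, which gave a log2 fold change of 0.62 (limma adjusted p-value 0.138). The pyrophosphatase genes *ppa1b* (390 and 316 against 330 and 429) and *ppa2* (127 and 159 against 149 and 143) overlapped between the genotypes. *atpv0e2*, by its name a V0 subunit gene of the vacuolar ATPase, was sorted here by its symbol. It is thus missing from the counts and sums of that pump. It had 35 and 80 in wild types against 82 and 81 in mutants, where wild type 1 alone stood apart. The log2 fold change was 0.61 (limma adjusted p-value 0.361). *ppa1a*, with 2 and 6 against 5 and 12, was not tested.

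Genes that assemble the complexes were described beside the members, since the pathway term leaves most of them out. The list held 46 tested assembly factors that are not members. All 46 had a log2 fold change above 0 (45 under upper-quartile rescaling, 43 without wild type 1 and 42 without mutant 2), with a median of 0.34 that was 0.198 without mutant 2. Both mutants exceeded both wild types in 29 (63.0%, beside 30.5% of all tested genes), 10 had an unadjusted p-value under 0.05 (beside 11.7% higher among all tested genes), and 1 was called (beside 2.7%). The called gene was *sdhaf1*, for a factor that delivers iron-sulfur clusters to Sdhb, with 50 and 55 in wild types against 103 and 113 in mutants, which gave a log2 fold change of 1.03 (SE 0.26, limma adjusted p-value 0.0499). This call lay at the threshold and was lost with a pseudocount of 0.1, with a replicate block and in several other alternatives.

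Assembly factors of complexes I, II and III were among those with the largest differences. *sdhaf2*, which attaches the flavin to Sdha, had 429 and 394 in wild types against 551 and 661 in mutants, which gave a log2 fold change of 0.55 (limma adjusted p-value 0.0692). *ndufaf1*, for complex I, had 372 and 431 against 540 and 646, a log2 fold change of 0.56 (limma adjusted p-value 0.074). *uqcc1* and *uqcc3*, for cytochrome b of complex III, had 333 and 316 against 431 and 523, and 121 and 154 against 205 and 231. In these genes both mutants were clear of both wild types. The same held in 33 of the 86 tested members of the respiratory chain and ATP synthase. This was 38.4%, beside 30.5% of all tested genes. The assembly factors were fewer in counts than the subunits, with a median mean of 167.6 against 396.0 in the members, and the difference between both lists was not tested.

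**Figure D5:**
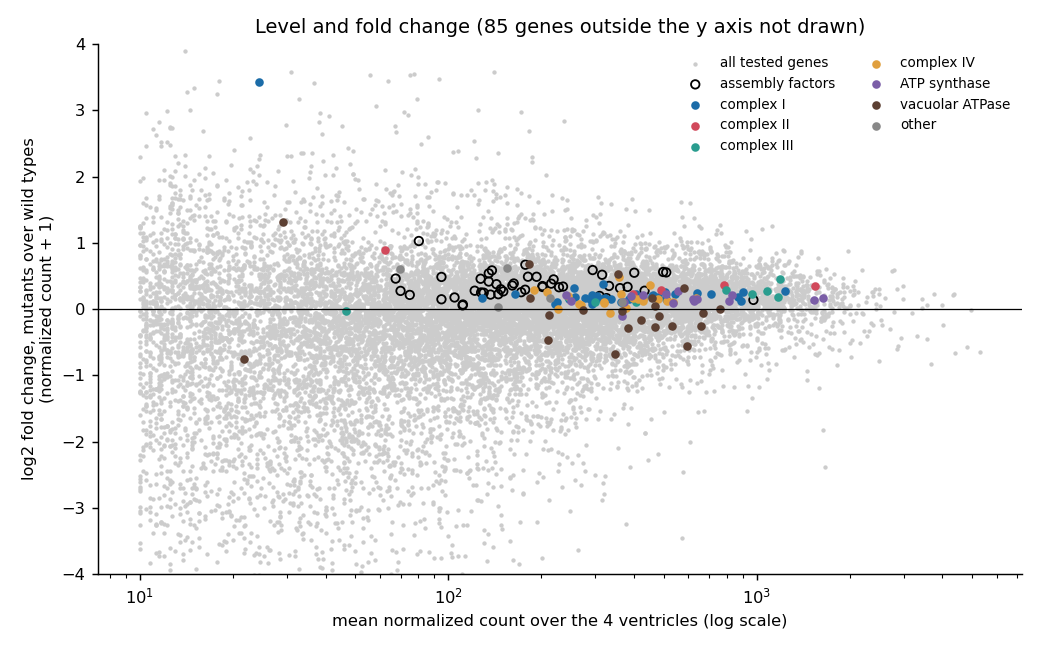
Log2 fold change (mutants over wild types) against the mean normalized count over the 4 ventricles (log scale) for all tested genes (grey), assembly factors (open circles) and members (colours), without 85 genes outside the y axis. The respiratory chain members form a narrow band just above 0, the 46 assembly factors lie above 0 at lower counts, and the vacuolar ATPase genes lie on both sides.

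Carriers that serve the chain were described in the same way. Of 12 tested genes all 12 had a log2 fold change above 0 (11 under cyclic loess normalization). Of the 12, 2 were called higher, beside 2.7% of all tested genes. *ucp3*, a carrier of the uncoupling protein family, rose from 87 and 84 in wild types to 240 and 208 in mutants, which gave a log2 fold change of 1.38 (SE 0.21, limma adjusted p-value 0.0135). *slc25a4*, the ADP/ATP carrier that predominates in mammalian heart and muscle, rose from 245 and 195 to 446 and 468, at a log2 fold change of 1.06 (SE 0.18, limma adjusted p-value 0.017). Without the mean-variance trend 1 of them was called. Without the filter, with values multiplied by the size factors and with a ventricle left out no gene of the table was called, these and those named next included. Their relatives did not share this size, with *ucp2* at 652 and 706 against 731 and 790 and *slc25a5* at 1118 and 1213 against 1166 and 1338. *etfdh*, which brings electrons from fatty acid oxidation to ubiquinone, had 724 and 692 in wild types against 953 and 1129 in mutants (log2 fold change 0.55, limma adjusted p-value 0.0577). *cycsb*, a cytochrome c gene, overlapped, with 567 and 584 against 580 and 711.

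Genes of the citrate cycle, which feeds the chain with NADH and succinate, had 19 of 23 tested genes above 0 when the complex II members were left out, with a median of 0.22. The median was 0.115 without mutant 2 and 0.102 under cyclic loess normalization. None was called higher and 2 of the 23 were called lower, beside 2.7% and 7.44% of all tested genes. Both calls were lost without the mean-variance trend. *aco1*, the cytosolic aconitase that also acts as an iron regulatory protein, fell from 167 and 165 in wild types to 39 and 18 in mutants, which gave a log2 fold change of -2.60 (limma adjusted p-value 0.0132). *ogdhb*, a copy of the gene for the first enzyme of the oxoglutarate dehydrogenase complex, fell from 478 and 391 to 252 and 234, at a log2 fold change of -0.83 (limma adjusted p-value 0.0292). The other copy *ogdha* had 2419 and 1951 against 2449 and 2730.

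Regulators of mitochondrial biogenesis showed no common direction. Of 18 tested genes 10 were above 0 (9 under upper-quartile rescaling) and 8 below, with a median of 0.08, and 0 were called. An unadjusted limma p-value under 0.05 was found in 5, all higher, beside 11.7% higher among all tested genes. They were *pparaa*, *pparab*, *tfb2m*, *yy1a* and *yy1b*, with log2 fold changes from 0.38 to 0.92. The balance of 10 above and 8 below depended on single ventricles. Without wild type 1 there were 14 above 0 and a median of 0.31, but without wild type 2 there were 8 and a median of -0.13. *ppargc1a*, the coactivator that drives mitochondrial gene expression in mammals, had 371 and 174 in wild types against 228 and 154 in mutants, a spread between the wild types that covers both mutants' distance. *nrf1* had 304 and 297 against 267 and 270, and *esrra* had 346 and 265 against 307 and 256. *tfam*, which packages mitochondrial DNA and activates its transcription, had 292 and 268 against 285 and 341. *tfb2m*, a factor needed to start transcription in mitochondria, had 354 and 434 in wild types against 539 and 647 in mutants, which gave a log2 fold change of 0.59 (limma adjusted p-value 0.0739).

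Some subunit genes carry no pathway term and stand outside the 117 members. In a list of 12 such genes made after the table had been seen, 11 had a log2 fold change above 0. The median was 0.18 and 0 were called, while without mutant 2 there were 8 above 0 and a median of 0.05. The list also held the vacuolar ATPase or accessory genes *atp6v1e1a*, *atp6ap1lb* and *atp6ap2*, at log2 fold changes of 0.18, 0.42 and 0.03. *ndufv3* had 493 and 479 in wild types against 518 and 624 in mutants, and *cox7a1*, the muscle form of its subunit in mammals, had 278 and 345 against 344 and 408. These lay in the same narrow range as the members. Of the members, 17 overlapped another listed gene, 5 of them on the same strand, and their values depend on how reads in the shared part were left out.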

How the data were processed

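Stranded mRNA libraries were trimmed by the authors with Trimmomatic 0.39, aligned with STAR 2.7.9a to danRer11 (annotation of Ensembl release 104) and counted by featureCounts 2.0.2, leaving out reads shared by genes or aligned more than once. Each deposited value is a score, namely the count over a size factor that the authors obtained with DESeq2 1.30.0, rounded to a whole number, so no count test was run. Limma 3.58.1 in R 4.3.3 (mean-variance trend, prior degrees of freedom 5.33) was fitted to log2(value + 1) of the 16065 genes with a mean of at least 10. In simulated data with 200 changed genes and a set spread between ventricles, 46% of those raised by a fold of 2 and 98% of those raised by a fold of 4 were called. Size factors were estimated from the rounding, and exact permutation tests used Python 3.11.15 with scipy 1.17.1. The members, gene lists and tests were chosen with earlier results of these data known. Genes named are the called members, the extremes of each complex, isoform families, untested members and the 5 uncalled members with the smallest adjusted p-value. The other genes named were chosen after their values were seen. Replicate numbers come from the labels and belong to different fish, and same-numbered deviations correlated at -0.066 across genes, so no block was used. Sequences and promoter motifs were not analysed here.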

Additional observations from a re-analysis of the deposited data

How the results depend on the processing

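The count of members called higher was 1 as deposited and 0 without a filter on low values, with a minimum mean of 50 (which *ndufa4l2a* does not reach) and, in an alternative chosen after seeing the data, with values multiplied by the estimated size factors, and it lay between 0 and 0 when each ventricle was left out. The count called lower was 0 as deposited, 1 with libraries rescaled to the same total, and 2 under upper-quartile rescaling and under cyclic loess normalization. The replicate block gave 0 lower and 1 higher and changed no call of a named member (*ndufa4l2a* adjusted p-value 0.0435). Same-numbered ventricles share only a number, and over all genes the replicate block gave 740 lower and 215 higher calls, against 1196 and 434. Over all genes 0 and 0 were called without the filter, with values multiplied by the size factors and with any ventricle left out, and 461 and 82 without the trend. The members' median log2 fold change was 0.16 with pseudocounts of 0.1 and 5, without the filter and with a minimum mean of 50, 0.13 at the same total, 0.10 at the same upper quartile, 0.06 under cyclic loess normalization, 0.14 with the size factors multiplied back, and from 0.032 to 0.287 with a ventricle left out, in which case the lone ventricle was assumed to vary like the rest. Fold-change limits of 0 and 1 changed no call of a member. Of 716 values of 45 named members under the alternatives, 705 stayed on the same side of the threshold, 6 lost a call and 5 gained one. In 28 of the 705 the sign changed, in 13 members none of which was called and whose log2 fold changes as deposited were at most 0.123 in size (18 with a ventricle left out and 10 in the other alternatives, such as *cox7a2a* under each rescaling and *uqcrb*, *cox4i1*, *cox8b*, *atp5mc1* and *ppa1b* under cyclic loess normalization). The causes of these changes were not tested. Multiplying by the size factors undoes the authors' scaling, so that alternative compares ventricles without it. With 2 fish per genotype the simulated data gave calls for only 46% of the genes raised by a fold of 2. Those genes were drawn from all tested genes, whose median mean was 152.8, against 396.0 in the members. The simulation changed 200 genes, whereas 1196 were called lower and 434 higher in the data. Its spread between ventricles was set and not estimated from these data. The share of calls was also not simulated for the members, so it does not say how many member changes of this size were missed. Smaller changes could be missed, and the range of the values may be limited by gene length.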
